A study of Mus musculus with 17 samples.

Results

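Retinoic acid is made from vitamin A (retinol) in enzymatic steps, and it acts in the nucleus as the ligand of the retinoic acid receptors. Its level in a cell is set by enzymes that make it, by enzymes that return its precursor retinaldehyde to retinol, and by the Cyp26 cytochromes that degrade it. In mouse embryonic stem cells the receptors hold or release their target genes, and retinoic acid added to such cells drives them out of pluripotency. Described here are 9 genes of this system, of 47729 genes listed in all, matched by symbol to the Ensembl identifiers of the files through GENCODE M21. They are the synthesising enzyme Aldh1a2, the retinaldehyde reductase Dhrs3, the degrading enzymes Cyp26a1 and Cyp26b1, the cellular binding proteins Crabp1 and Crabp2, and the receptors Rara, Rarb and Rarg. The genes were chosen by name, with their levels in these same 17 libraries and their folds between the groups already known. Their values, folds and calls are therefore a description, and no p-value is given for them.

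The study compared mRNA of mouse embryonic stem cells in different media. These hold the cells in the naive state of pluripotency, hold them between it and the primed state, or move them toward the primed state. All cells were of the line R1 or CGR8, in serum-free N2B27 medium with LIF. L2i held 3 uM CHIR99021, which activates Wnt signalling, and 0.1 uM PD325901, an inhibitor of MEK. LIM held 0.1 uM PD325901 and 2 uM IWP2, which blocks Wnt secretion. LFAI held 12 ng/ml FGF2, 20 ng/ml human Activin A and 2 uM IWP2, with no MEK inhibitor, for 35 h or 4 days. Each of these 4 groups had 1 R1 and 1 CGR8 library (n = 2), on gelatin with basement membrane extract. L2i cells had spent 10 (R1) and 8 (CGR8) passages in 2i, the pair of inhibitors in L2i. LIM cells had spent 5 and 5 passages in 2i and then 4 and 6 in LIM. The cells of LFAI at 35 h had spent 9 and 7 passages in 2i, and those of LFAI at 4 days 3 and 9. Passage history and medium therefore cannot be told apart. A separate time course of R1 cells at passage 32 had 9 single libraries: the L2i start (day 0), then every day to day 4 after the switch to either LIM or LFAI. It used gelatin with fetal calf serum and another sequencing protocol. Its levels were normalized apart from those of the set with both lines, and levels set side by side across the sets share no scale. Cells of the time course had spent 5 passages in 2i at day 0, 4 on days 1 to 3 and 3 on day 4. Day and passage history cannot be fully told apart there either.

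The libraries held 15.14 to 22.59 M (mega) counts each in the set with both lines and 12.89 to 13.67 M in the time course. The 6 pluripotency markers (Pou5f1, Sox2, Nanog, Zfp42, Esrrb and Klf4) were all above 0 in the 17 libraries, with summed levels of 1640 to 5270 CPM (counts per 1 M gene counts, TMM-scaled). One library went against its label. The library labelled LFAI day 1 was nearer to the LIM libraries than to the other LFAI libraries. The SD of its log2 differences over 10874 genes was 0.182 to LIM day 1 and 0.202 to LIM day 2, against 0.396 to day 0 and 0.720 to LFAI day 2. By a chi-square per gene on the counts, in which highly counted genes weigh most, the nearest was LIM day 2 (8.36), with LIM day 1 at 28.8, day 0 at 23.5 and LFAI day 2 at 73.4. Dusp6, a phosphatase gene switched on by ERK signalling, stood at 9.23 CPM in it, 9.90 in LIM day 1 and 78.3 in LFAI day 2. Spry4, another gene of that kind, stood at 2.86, 2.22 and 85.8 CPM in the same libraries. Both ERK targets were picked after their values were seen. LFAI values of the time course are given here without that library, and its own value is named apart.

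Promoter windows of 8 of the 9 genes, all but Crabp2, were found in RefSeq (GRCm38.p6), 14 windows in all, each from 250 bases before to 50 after a transcript start. They were searched on both strands for 2 copies of a receptor half-site (AGGTCA or AGTTCA or GGGTCA or GGTTCA) in the same orientation. The spacing was 5 bases (DR5, the classical element of retinoic acid receptors), or 1 or 2 bases (DR1 and DR2). A DR5 was found in Rarb and in Cyp26a1, and in 32 (0.0974%) of all 32851 windows. Both genes are textbook direct targets of retinoic acid, and these stretches are shown because the data below measure how far each gene was expressed. Capitals mark the half-sites, and each run is written 5′ to 3′ on the strand of its gene.
Rarb: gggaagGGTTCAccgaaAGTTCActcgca
Cyp26a1: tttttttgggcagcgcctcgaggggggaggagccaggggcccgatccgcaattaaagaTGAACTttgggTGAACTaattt
The Rarb stretch is chr14:16575507-16575535 on the minus strand, with the element at bases -53 to -37 from the RefSeq start, inside the annotated first exon of some GENCODE M21 transcripts. The Cyp26a1 stretch is chr19:37697718-37697797 on the plus strand, outside the exons of the gene. Its half-sites read in the reverse orientation and span bases -32 to -16. No DR1 or DR2 lay in the windows of these genes, where all windows held them at 0.222% and 0.268%. A match is a description of the letters and shows no binding.

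Across the 4 groups, Crabp2 and Rarg were at their lowest in L2i and higher in both lines in each other medium. Crabp1 was also lowest in L2i in both lines, though LIM and 4 days of LFAI lay close to it in R1. Cyp26a1 was counted in number only in LIM. Rara and Rarg peaked at 35 h in LFAI, and Aldh1a2 and Rarb were nearly or fully lost at 4 days. Of the 9 genes, 8 passed the filter on low counts, and Cyp26b1 did not. Cyp26a1 passed it only through LIM and Rarb only through L2i, the groups where they are high. Their calls are in the counts below but give no support of their own. In LIM against L2i, 3 of these 8 were called higher and none lower at an adjusted p under 0.05 (edgeR quasi-likelihood test, Benjamini-Hochberg over 15525 genes). Of all tested genes 19.1% were called there, 11.3% higher and 7.81% lower. In LFAI at 35 h against L2i, 3 were called higher and none lower, against 14.5% of all genes (7.35% higher and 7.16% lower). In LFAI at 4 days against L2i, 1 was called higher and 3 lower, against 44.8% (21.5% higher and 23.3% lower). Against LIM, LFAI at 4 days had 6 called lower and none higher, where 29.5% of all genes were called (12.3% higher and 17.2% lower). LFAI at 35 h had 2 called lower than LIM and none higher, against 6.38% (1.92% higher and 4.46% lower). From 35 h to 4 days in LFAI 3 were called lower and none higher, against 36.8% (17.7% higher and 19.0% lower). For 4 days of LFAI against LIM, the count was 4 to 5 when any 1 of the 8 libraries was left out. The comparisons share groups, so their counts are not independent of each other.

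Of the 9 genes, 6 passed the filter of the time course, at least 1 CPM before TMM scaling in 1 or more of its libraries. Dhrs3 and Crabp2 were past 2-fold above day 0 on each of LIM days 1 to 4, and none was past 2-fold below it. Of all genes that passed, 9.81%, 11.8%, 14.4% and 15.4% were past 2-fold in either direction on those days. On LFAI days 2 and 3, Crabp2 and Rarg were past 2-fold above day 0 and Dhrs3 past 2-fold below it, and on day 4 Crabp2 alone was past 2-fold. The share of all genes was 21.5%, 27.4% and 29.7%. The library labelled LFAI day 1 matched LIM in this, with Dhrs3 and Crabp2 past 2-fold above day 0 and 8.53% of all genes past 2-fold.

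**Figure D1:**
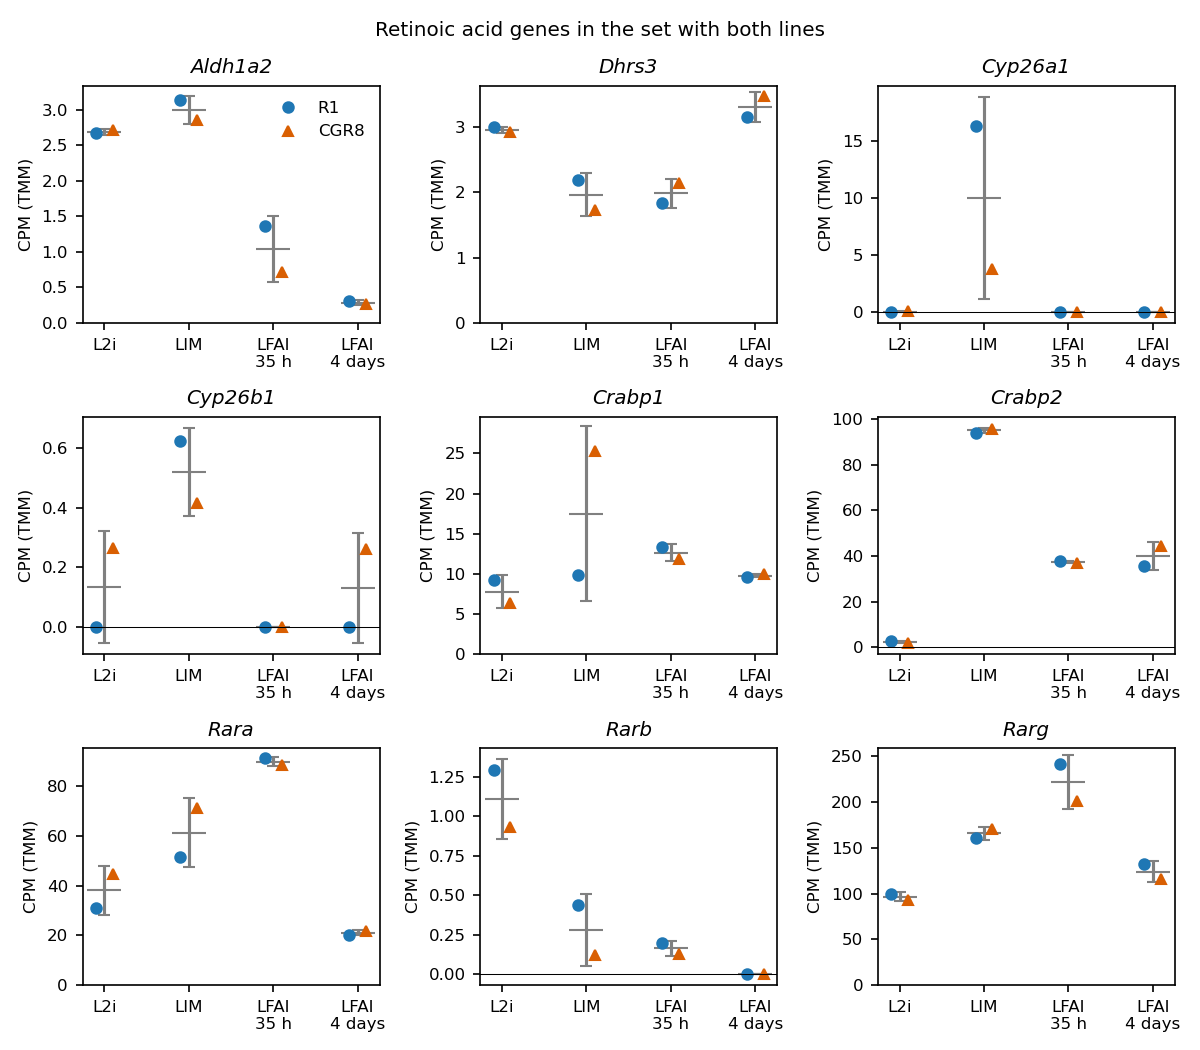
Levels of the 9 genes in CPM (TMM-scaled, vertical axes from 0 or just below it) in the 4 groups, with circles for R1, triangles for CGR8, and grey lines for the mean and SD of the pair. Crabp2 is lowest in L2i (2.67 and 1.93), Cyp26a1 stands out in LIM (16.3 and 3.75), and Rara is highest at 35 h in LFAI (91.2 and 88.5).

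Aldh1a2 (ENSMUSG00000013584, GRCm38 chromosome 9, 71215789 to 71296243), which oxidises retinaldehyde to retinoic acid in the early embryo, was low throughout. Its levels in R1 and CGR8 were 2.67 and 2.72 CPM in L2i, 3.13 and 2.85 in LIM, 1.37 and 0.714 at 35 h in LFAI, and 0.315 and 0.261 at 4 days. L2i and LIM were alike in level, and both lines were lower at 35 h and again at 4 days, with no overlap between those groups. At 4 days the level was 9.13-fold below L2i (log2 -3.19 ± 0.56, SE) and 10.1-fold below LIM (log2 -3.34 ± 0.56), and both folds were called. The 4-day values rest on 5 and 4 counts. The step from 35 h to 4 days (log2 -1.83 ± 0.57) was called, but not with DESeq2 (-1.87), limma-voom (-1.68) or the 4 libraries alone (-1.87). It was not called either without 1 library in 5 of the 8 cases, with log2 folds from -1.32 to -1.96: R1 or CGR8 at 4 days, R1 at 35 h, or R1 or CGR8 in LIM. In bulk RNA, fewer cells of a type and less RNA per cell cannot be told apart, here and in what follows. Over the time course Aldh1a2 stood at 3.29 CPM at day 0, at 1.90, 3.38, 3.29 and 3.78 on LIM days 1 to 4, and at 3.48, 1.88 and 1.86 on LFAI days 2 to 4. On day 4 the LIM library held 2.03 times the LFAI level (counting interval 1.24 to 3.40). The deep loss of the set with both lines was not seen there, since LFAI day 4 kept 26 counts against 45 at day 0.

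Dhrs3 (ENSMUSG00000066026, chromosome 4, 144892827 to 144928209) reduces retinaldehyde to retinol, which draws precursor away from retinoic acid. In the set with both lines its differences between media were small, with LIM and 35 h below L2i and 4 days in both lines. R1 and CGR8 held 2.99 and 2.92 CPM in L2i, 2.19 and 1.72 in LIM, 1.83 and 2.14 at 35 h and 3.15 and 3.46 at 4 days. None of its 6 comparisons was called, and the widest fitted fold was log2 0.75 ± 0.39, for LFAI at 4 days over LIM. The time course differed from that. Dhrs3 went from 2.41 CPM at day 0 to 14.7, 13.3, 10.2 and 9.30 on LIM days 1 to 4, a ratio to day 0 of 6.08 on day 1 (counting interval 4.18 to 9.09). On LFAI days 2 to 4 it held 1.00, 0.577 and 1.72 CPM, below day 0 on days 2 and 3. The LIM to LFAI ratio was 13.2 on day 2 (7.54 to 25.3), 17.7 on day 3 (8.75 to 41.9) and 5.41 on day 4 (3.48 to 8.77). The library labelled LFAI day 1 held 11.4 CPM, near LIM day 1. Single libraries give these ratios no replicate check, and the intervals cover only the error of counting. The high Dhrs3 of the first LIM days thus had no counterpart in cells kept in LIM for 4 to 6 passages, in a set whose coating, protocol and, for CGR8, line also differ.

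Cyp26a1 (ENSMUSG00000024987, chromosome 19, 37697798 to 37701536), the chief retinoic acid hydroxylase of the early embryo, was found in number only in cells passaged in LIM. It had 260 and 63 counts in LIM (16.3 CPM in R1 and 3.75 in CGR8), 0 and 1 in L2i, and 0 in all LFAI libraries of that set. Both LIM libraries stood far above the rest, and R1 was well above CGR8. The ratio of LIM to L2i was 362.6, with a counting interval of 64.62 to 14370. Against LIM, Cyp26a1 was at least 100.9-fold lower at 35 h in LFAI and at least 102.4-fold lower at 4 days, taking 3 counts over both libraries for the 0. All 3 differences were called. Cyp26a1 passed the filter on low counts only through its LIM libraries, so these calls add nothing to the counts themselves. The call at 35 h against LIM was lost without R1 or CGR8 at 35 h, or without R1 in LIM, with fitted log2 folds of -10.39, -10.38 and -8.96. With 0 counts at 35 h, the size of these folds depends on the prior count, and only the bound is measured. No library of the time course had more than 3 counts of Cyp26a1 (0.227 CPM, LIM day 4), where 0 counts allow up to 0.215 to 0.238 CPM. So 4 days of LIM in R1 did not bring the level of passaged LIM cells, in sets normalized apart that differ in coating and protocol. Of the 3 neural markers, Pax6 had a like pattern, at 57.7 CPM in R1 and 25.9 in CGR8 in LIM and 0.588 to 5.68 in the other groups of that set. Neurod1 did not, since it was higher in CGR8 at 35 h in LFAI (12.7) than in CGR8 in LIM (9.99). Sox1 was 8.20 and 3.33 CPM in LIM, and 3.20 and 3.05 at 35 h in LFAI, where Cyp26a1 had 0 counts. The summed level of all 3 was 88.1 and 39.2 CPM in LIM and 5.75 to 19.7 in the other groups of that set, and 41.4 on LIM day 4 of the time course, at 3 counts of Cyp26a1. The 5 primitive endoderm markers summed to 10.1 and 9.04 CPM in LIM and 0.849 to 3.38 elsewhere in that set, a difference carried by Gata4 (7.01 and 5.05 in LIM) and Pdgfra (2.19 and 2.68). Sox7 was also higher in LIM (0.751 and 0.951 CPM) than in L2i (0.0919 and 0), but stood at 1.43 in CGR8 at 35 h in LFAI. Gata6 (0.0626 and 0.178 CPM) and Sox17 (0.0626 and 0.178) were not higher in LIM than in L2i. Each had only 1 count in R1 LIM and 3 in CGR8 LIM. The part of either cell type in the result was not tested.

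Cyp26b1 (ENSMUSG00000063415, chromosome 6, 84571414 to 84593908), a second hydroxylase with the same substrate, was close to absent. R1 and CGR8 had 0 and 4 counts in L2i, 10 and 7 in LIM, 0 and 0 at 35 h, and 0 and 4 at 4 days. LIM held the most in both lines (0.626 and 0.416 CPM), but the gene failed the filter on low counts and was not tested. The time course held 0 to 7 counts, at most 0.535 CPM, with no order by medium.

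Crabp2 (ENSMUSG00000004885, chromosome 3, 87948666 to 87953376) carries retinoic acid to its nuclear receptors. It was the member with the widest well-counted difference. R1 and CGR8 held 2.67 and 1.93 CPM in L2i, 94.0 and 95.7 in LIM, 37.7 and 37.1 at 35 h in LFAI, and 35.7 and 44.4 at 4 days. The lines lay close in each medium, and L2i, LFAI and LIM did not overlap. LIM was 40.7-fold above L2i (log2 5.35 ± 0.22), LFAI at 35 h 16.0-fold (4.00 ± 0.21) and at 4 days 17.2-fold (4.10 ± 0.21), all called. LFAI was 2.53-fold below LIM at 35 h (-1.34 ± 0.18) and 2.37-fold below at 4 days (-1.24 ± 0.18), also called. Between 35 h and 4 days the groups overlapped (0.10 ± 0.17). The early epiblast markers Otx2, Fgf5, Pou3f1 and Dnmt3b were likewise lowest in L2i, with summed levels of 112 to 122 CPM there, 1010 to 1300 in LIM, 914 to 1700 at 35 h and 2520 to 2670 at 4 days. Dnmt3b made up most of each sum. Fgf5, Pou3f1 and Dnmt3b were highest at 4 days in both lines, while Otx2 (156 and 271 CPM in LIM, 250 and 158 at 35 h, 170 and 209 at 4 days) overlapped among the media other than L2i.

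By day, Crabp2 stood at 2.19 CPM at day 0 and at 20.5, 21.8, 42.7 and 62.0 on LIM days 1 to 4. On LFAI days 2 to 4 it stood at 8.50, 19.6 and 22.2 CPM. Every LIM and LFAI library was above day 0, and LIM was above LFAI on each matched day. The LIM to LFAI ratio was 2.56 on day 2 (2.05 to 3.22), 2.18 on day 3 (1.88 to 2.53) and 2.79 on day 4 (2.44 to 3.18). The library labelled LFAI day 1 held 17.7 CPM, more than LFAI day 2 and close to LIM day 1. With it, the LFAI series would fall from day 1 to day 2; without it, LFAI goes up at each step.

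**Figure D2:**
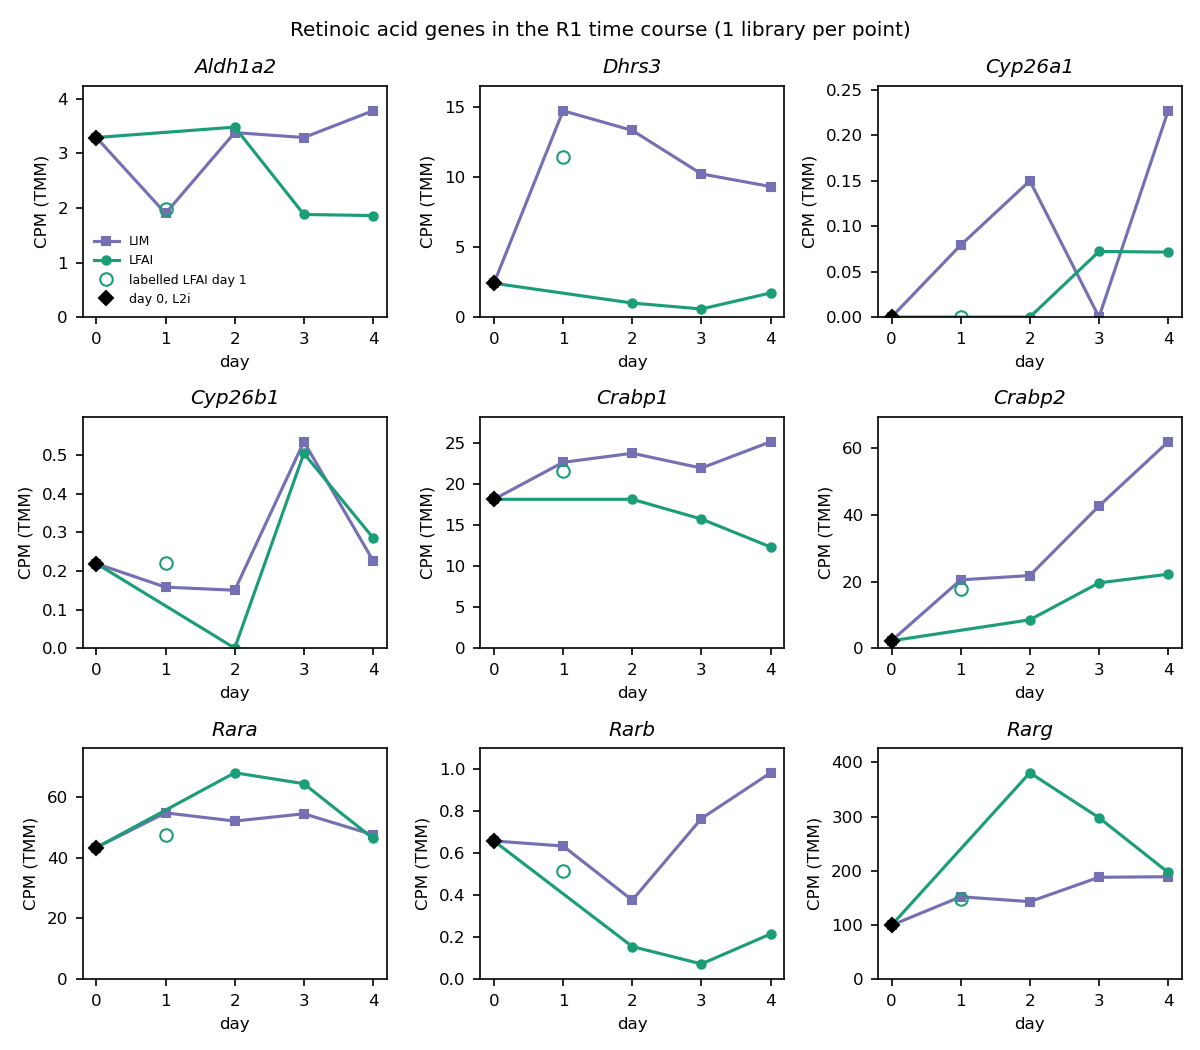
Levels of the 9 genes in CPM (TMM-scaled) by day in the R1 time course, 1 library per point, with squares for LIM, filled circles for LFAI, a diamond for day 0 in L2i and an open circle for the library labelled LFAI day 1. Dhrs3 and Crabp2 are higher in LIM than in LFAI from day 2, Rarg is highest on LFAI day 2 (381), and the open circles lie near LIM day 1.

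Crabp1 (ENSMUSG00000032291, chromosome 9, 54764748 to 54773110), a carrier that holds retinoic acid in the cytoplasm and aids its breakdown, did not follow Crabp2 in R1. In both lines L2i was lowest, as for Crabp2, but in R1 LIM and 4 days of LFAI were close to L2i. R1 and CGR8 held 9.24 and 6.31 CPM in L2i, 9.83 and 25.3 in LIM, 13.3 and 11.8 at 35 h, and 9.63 and 9.93 at 4 days. The CGR8 LIM library stood apart, and the other 7 ranged from 6.31 to 13.3. No comparison of Crabp1 was called over all 8 libraries. LIM over L2i (log2 1.17 ± 0.41) was called with DESeq2 (1.17), with no filter on low counts (1.17) and without the R1 LIM library (1.70). LFAI at 4 days against LIM (-0.84 ± 0.41) was called with no filter (-0.87) and without the R1 LIM library (-1.38). The fibroblast markers Col1a1, Col1a2, Thy1, Dcn and Twist2 also summed highest in the CGR8 LIM library, at 23.1 CPM against 9.64 in R1 LIM and 1.93 to 18.1 elsewhere in that set. Thy1 carried that difference, with 5.20 CPM in R1 LIM and 19.8 in CGR8 LIM. Col1a1 (2.57 and 2.14), Col1a2 (1.69 and 0.951) and Dcn (0.188 and 0.178) were no higher in CGR8, and Twist2 was at 0 in R1 LIM and at 0.0594 in CGR8 LIM. Their part in the result was not tested. R1 cells of the time course held Crabp1 at 18.1 CPM at day 0, 21.9 to 25.1 on LIM days 1 to 4 and 18.1, 15.7 and 12.3 on LFAI days 2 to 4. On day 4 LIM held 2.04 times the LFAI level (1.69 to 2.47).

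The 3 receptors differed widely in level. Per kilobase of exon in L2i, Rarg held 22.7 ± 1.16 CPM (SD, n = 2), Rara 8.70 ± 2.22 and Rarb 0.211 ± 0.0480, and none of these overlapped. The order Rarg, Rara, Rarb held in each of the 4 groups, also with the mean transcript length in place of the union of exons. Rarg (ENSMUSG00000001288, chromosome 15, 102234938 to 102257517) is the main receptor of undifferentiated embryonic stem cells. R1 and CGR8 held 100 and 93.2 CPM in L2i, 161 and 171 in LIM, 242 and 201 at 35 h, and 132 and 116 at 4 days. The 4 groups did not overlap, with L2i lowest and 35 h highest. LIM was 1.72-fold above L2i (log2 0.78 ± 0.14) and LFAI at 35 h 2.29-fold (1.20 ± 0.14), and the level at 4 days was 1.79-fold below that at 35 h (-0.84 ± 0.14), all called. The 4-day level was also called below LIM (-0.42 ± 0.14). That call was lost with DESeq2 size factors (-0.42), with the 4 libraries alone (-0.45), and without 1 library in 7 of 8 cases, all but R1 at 35 h (-0.34 to -0.52). By day, Rarg went from 99.4 CPM at day 0 to 381, 298 and 197 on LFAI days 2 to 4, against 143, 188 and 189 on LIM days 2 to 4. The LFAI to LIM ratio was 2.66 on day 2 (2.53 to 2.81), 1.58 on day 3 (1.5 to 1.66) and 1.04 on day 4 (0.989 to 1.1). In both sets Rarg was thus highest early in LFAI and lower at 4 days. The library labelled LFAI day 1 held 147 CPM, beside 152 in LIM day 1.

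Rara (ENSMUSG00000037992, chromosome 11, 98927818 to 98974942), a broadly expressed receptor, had a wider range than Rarg in LFAI. R1 and CGR8 held 31.1 and 44.8 CPM in L2i, 51.4 and 71.2 in LIM, 91.2 and 88.5 at 35 h, and 20.3 and 21.6 at 4 days. The 4 groups did not overlap, with 35 h highest and 4 days lowest. At 35 h Rara was 2.37-fold above L2i (log2 1.24 ± 0.21), and at 4 days it was 4.28-fold below 35 h (-2.10 ± 0.22) and 2.92-fold below LIM (-1.55 ± 0.22), all called. At 4 days it was also called 1.81-fold below L2i (-0.85 ± 0.22), but not without CGR8 in L2i (-0.58) or without R1 or CGR8 at 4 days (-0.80 and -0.90). LIM over L2i (0.69 ± 0.21) was not called, and was called with the line as a block (0.69). It was called too with DESeq2 (0.69), limma-voom (0.72) and no filter on low counts (0.69), and without CGR8 in L2i (0.98) or R1 in LIM (0.92). In the time course Rara held 43.3 CPM at day 0, 47.5 to 54.7 in LIM, and 67.9, 64.3 and 46.3 on LFAI days 2 to 4. The peak early in LFAI was present there too, but LFAI day 4 was level with day 0 (ratio 1.07, 0.956 to 1.20), unlike the 4-day libraries of the other set.

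Rarb (ENSMUSG00000017491, chromosome 14, 16430839 to 16819156), the receptor gene known to be induced by retinoic acid itself, was near the detection limit. R1 and CGR8 had 28 and 14 counts in L2i, 7 and 2 in LIM, 3 and 2 at 35 h and 0 and 0 at 4 days. L2i was above every other group in both lines (1.29 and 0.930 CPM). Rarb passed the filter on low counts only through L2i, so its calls add nothing to the counts themselves. At 4 days Rarb was at least 11.86-fold below L2i, which was called, and at least 2.853-fold below LIM. The second call was lost with DESeq2 (-4.55), limma-voom (-3.03), the line as a block (-5.18) and each of the 8 libraries left out (-4.06 to -5.87). With 0 counts at 4 days, the size of these log2 folds depends on the method, and only the bound is measured. Time-course counts of Rarb were 9 at day 0, 5 to 13 in LIM, and 2, 1 and 3 on LFAI days 2 to 4. Rarb overlaps Top2b on the opposite strand, which had 32894 counts over the 17 libraries against 114 for Rarb. Whether the counting used strand is not given in the sources used here, so some of the few Rarb reads may belong to its partner. Rarb and Cyp26a1 share the DR5 in their promoter windows. In the set with both lines they differed in pattern: Rarb was highest in L2i, where Cyp26a1 had 0 and 1 counts, and Cyp26a1 was highest in LIM. In the time course Rarb was not highest in L2i, at 0.658 CPM on day 0 and 0.983 on LIM day 4.

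**Figure D3:**
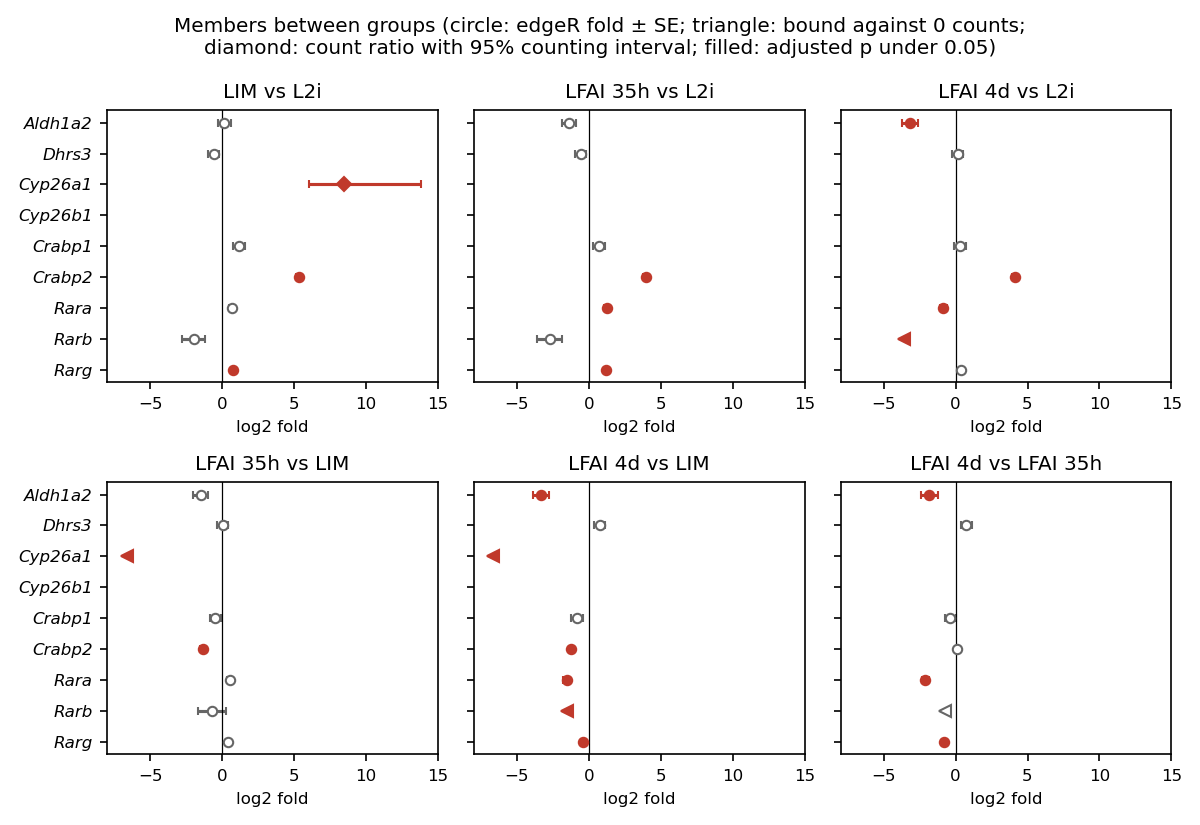
Log2 folds of the 8 tested genes in the 6 comparisons of the set with both lines (horizontal axis), as edgeR folds with SE (circles), count ratios with 95% counting intervals where 1 group had 1 to 3 counts (diamonds), or bounds against 0 counts (triangles), filled where called. Cyp26b1 was not tested and its row is empty, and Cyp26a1 is drawn only in comparisons with LIM. Crabp2 lies right of 0 in the 3 comparisons with L2i (log2 5.35, 4.00 and 4.10), and all filled marks in the lower 3 panels lie left of 0.

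Per kilobase of exon, the order of the 9 genes changed with the medium. In L2i Rarg led, followed by Crabp1 (9.69 ± 2.58 CPM per kb) and Rara (8.70 ± 2.22), which overlapped. In LIM Crabp2 led with 71.8 ± 0.901, above Rarg with 39.0 ± 1.71, and Crabp1 (21.9 ± 13.6) overlapped with Rara (14.0 ± 3.21). At 35 h in LFAI Rarg (52.0 ± 6.89) was above Crabp2 (28.3 ± 0.300), and at 4 days Crabp2 (30.3 ± 4.68) and Rarg (29.1 ± 2.76) overlapped. With the mean transcript length in place of the union of exons Rarg came first in all 4 groups, at 148 CPM per kb against 119 for Crabp2 in LIM and at 111 against 50.4 at 4 days. The lead of Crabp2 in LIM and the overlap at 4 days therefore depend on the length used.

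Other genes of the pathway were taken as 4 lists, 56 genes in all, not picked for how they moved, although earlier results of these data were known. Of these, 38 passed the filter. In LIM against L2i 5 rose and 5 fell (19.1% of all genes were called). In LFAI at 35 h against L2i 1 rose and 7 fell (14.5% of all genes called), and at 4 days 8 rose and 11 fell (44.8%). At 4 days against LIM 4 rose and 10 fell (29.5%), and at 35 h against LIM none rose and 4 fell (6.38%). From 35 h to 4 days 7 rose and 6 fell (36.8%). All adjusted p-values that follow are from edgeR's quasi-likelihood test with Benjamini-Hochberg adjustment over 15525 genes, and the calls named held in every alternative run unless an exception is given.

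Of 18 genes that handle the precursors of retinoic acid (the supply list), 12 were tested. The list mixes enzymes that make retinaldehyde with reductases that remove it, so its median gives no direction of supply. Their median log2 fold was 0.12 in LIM, -0.08 at 35 h and 0.48 at 4 days against L2i, beside 0.01, 0.00 and 0.00 for all genes. Rdh11, a reductase of retinaldehyde, rose from 37.0 (R1) and 39.1 (CGR8) CPM in L2i to 74.0 and 75.7 in LIM (log2 0.98 ± 0.13, adjusted p = 0.00153). It rose to 126 and 133 at 4 days in LFAI (log2 1.77 ± 0.13, adjusted p = 2.26e-05). Dhrs4, a carbonyl reductase that takes retinaldehyde, rose from 19.9 and 18.0 to 44.1 and 43.2 CPM at 4 days (log2 1.20 ± 0.24, adjusted p = 0.00397). Over the time course Rdh11 stood at 44.7 CPM at day 0 and at 68.3, 94.5 and 142 on LFAI days 2 to 4, but at 45.0 to 50.0 on LIM days 1 to 4, without the higher level of passaged LIM cells. Dhrs4 stood at 14.9 CPM at day 0 and at 14.3, 13.6 and 18.5 on LFAI days 2 to 4. Rdh10, which makes the retinaldehyde for Aldh1a2, stood at 4.41 and 4.65 CPM in L2i and 13.3 and 7.37 in LIM (log2 1.19 ± 0.35, adjusted p = 0.0442). That rise was not called with limma-voom, with the 4 libraries alone or in 7 of the 8 fits with 1 library left out, all but the one without CGR8 in LIM (adjusted p = 0.0535 to 0.28 where not called). LIM days 1 to 4 held 5.62 to 6.53 CPM of Rdh10, against 5.04 at day 0. The other retinaldehyde dehydrogenases were not called. Aldh1a1 failed the filter, with 9 counts at most in a group, and Aldh1a3 held 0.913 to 2.99 CPM.

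Of the 4 removal and carrier genes 2 were tested. Fabp5, a fatty acid carrier that can also take retinoic acid to PPAR delta, held 5.98 and 4.85 CPM in L2i and 5.68 and 3.64 at 35 h. It rose to 37.8 and 38.1 CPM at 4 days (log2 2.80 ± 0.27 against L2i, adjusted p = 7.91e-05). By day, Fabp5 stood at 3.43 CPM at day 0, at 5.56, 19.3 and 28.0 on LFAI days 2 to 4, and at 3.60 to 4.38 in LIM. Cyp26c1, the remaining Cyp26 gene, had 7 counts at most in a group and was not tested.

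**Figure D4:**
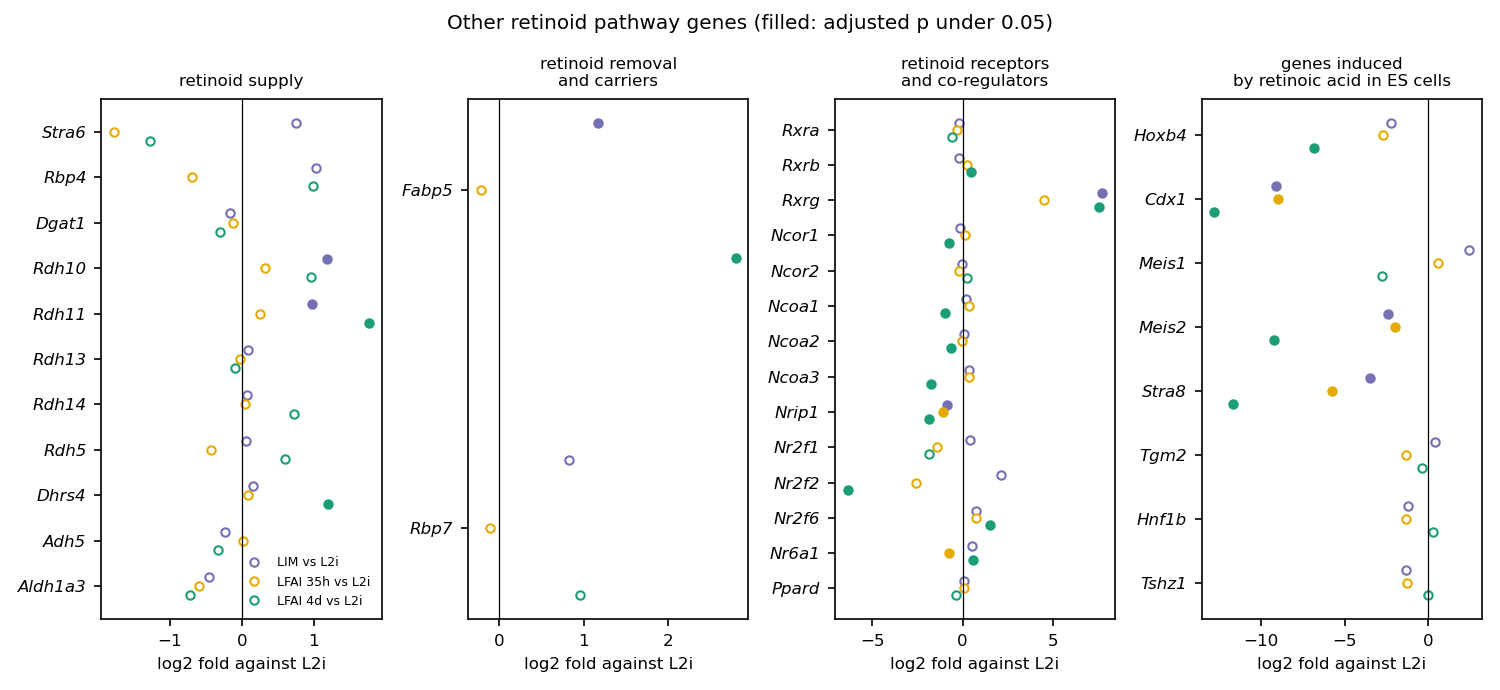
Log2 folds against L2i of 35 of the 38 tested genes of the 4 pathway lists (horizontal axes, each panel with its own range), for LIM (purple), LFAI at 35 h (yellow) and LFAI at 4 days (green), filled where the adjusted p was under 0.05; folds of genes with 0 counts in 1 group depend on the prior count. Of the genes induced by retinoic acid, Cdx1, Meis2 and Stra8 lie left of 0 in all 3.

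Of 16 receptors and co-regulators, 14 were tested. Against L2i 4 rose and 6 fell at 4 days in LFAI (median log2 -0.61, all genes 0.00), where 44.8% of all genes were called. In LIM 1 rose and 1 fell (19.1% of all genes), and at 35 h none rose and 2 fell (14.5%). Among the retinoid X receptors, which pair with the retinoic acid receptors on DNA, Rxra was not called in these comparisons. It held 32.9 and 41.2 CPM in L2i and 30.5 and 19.1 at 4 days. Rxrb held 72.2 and 58.6 CPM in L2i and 90.4 and 91.7 at 4 days, a rise that was called but not in 7 alternative runs. Rxrg had 0 counts in L2i and rose to 2.44 and 0.832 CPM in LIM, at least 19.83-fold (adjusted p = 0.00608), and to 1.38 and 1.5 CPM at 4 days, at least 17.7-fold (adjusted p = 0.00253). In the time course Rxrg went to 2.40, 10.9 and 12.3 CPM on LFAI days 2 to 4 from 0.0731 at day 0, and was at 0 on LIM days 1 to 4. The p160 coactivators Ncoa3 and Ncoa1 fell at 4 days. Ncoa3 went from 252 and 254 CPM to 86.5 and 60.6 (log2 -1.78 ± 0.18, adjusted p = 0.000106), and Ncoa1 from 31.1 and 26.3 to 17.5 and 11.9 (log2 -0.97 ± 0.21, adjusted p = 0.00611). The corepressor Ncor1 fell too (log2 -0.78 ± 0.16, adjusted p = 0.00476), and so did Nrip1, a corepressor that binds ligand-bound receptors (log2 -1.88 ± 0.24, adjusted p = 0.000335). Nr2f6, an orphan receptor that can bind direct repeats, rose (log2 1.5 ± 0.30, adjusted p = 0.00365).

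Nr6a1, the orphan receptor GCNF, rose from 76.6 and 56.1 CPM at 35 h to 156 and 172 at 4 days (log2 1.31 ± 0.20, adjusted p = 0.00132). It is known to repress pluripotency genes during retinoic acid treatment. In L2i it held 111 CPM in both lines, and in LIM 184 and 130, which overlapped with the 4-day level. The rise from L2i to 4 days was called, but not in 4 alternative runs. By day, Nr6a1 stood at 81.2 CPM at day 0, 74.7 to 108 on LIM days 1 to 4, and 121, 149 and 159 on LFAI days 2 to 4. LFAI day 2 was thus above day 0, while the 35 h libraries of the other set were below L2i.

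Of 18 genes known to be induced by retinoic acid in embryonic stem cells, 10 were tested, and more of them fell than rose on leaving L2i. Against L2i, 1 rose and 4 fell in LIM (median log2 -1.76), 1 rose and 4 fell at 35 h (-1.66), and 1 rose and 5 fell at 4 days (-3.44, or -2.95 with genes at 0 counts set to their bound). The medians of all genes were 0.01, 0.00 and 0.00. Of all tested genes, 11.3% were called higher and 7.81% lower in LIM, 7.35% and 7.16% at 35 h, and 21.5% and 23.3% at 4 days. The list leaves out the 9 members, Rarb and Cyp26a1 among them. Meis2, a homeobox cofactor of Hox proteins, fell from 72.0 and 54.7 CPM to 13.8 and 10.3 in LIM (log2 -2.40 ± 0.25, adjusted p = 0.000674). At 4 days it had 3 counts left, a ratio of L2i to LFAI of 675.3 (230.8 to 3277). Stra8, the retinoic acid induced gene of germ cells entering meiosis, stood at 15.4 and 35.7 CPM in L2i and had 0 counts at 4 days, at least 246.3-fold lower (adjusted p = 0.00131).

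The primitive streak markers T, Mixl1, Mesp1 and Kdr also summed highest in L2i, to 8.14 and 11.8 CPM against 0.915 to 3.38 in the other groups of that set. T (2.44 and 8.43 in L2i) was at most 0.523 elsewhere in that set, while Kdr (3.72 and 2.79 in L2i) was nearly as high in LIM (2.63 and 2.44), and Mesp1 was at 0 in 7 of those 8 libraries. Their part in the levels of the induced genes was not tested. Meis2 stood at 53.9 CPM at day 0 and at 54.7 to 66.3 in LIM, but at 17.5, 3.54 and 1.36 on LFAI days 2 to 4. The low Meis2 of passaged LIM cells was not seen within 4 days of LIM, in sets that were normalized apart.

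The genes with the pattern most like each member were sought by Pearson correlation of log2 CPM, centred within each set, over the 17 libraries, among named genes with a mean of 5 CPM or more. The libraries share medium, set and line, so the values are a description. Crabp2 was closest to Shb (r = 0.960), an adaptor of tyrosine kinase signalling, Pak6 (0.940) and Mapk8ip2 (0.929). Rarg was closest to Zfp652 (0.953), Slc38a2 and Dppa4 (both 0.936), the last a gene of pluripotent cells. Rara was closest to Aire (0.955), Klf9 (0.932) and Upf2 (0.926), and Aldh1a2 to N4bp2 (0.928), Wdr37 (0.922) and Hhex (0.912). Dhrs3 was closest to Rapgef1 (0.921), Praf2 (0.916) and Hhip (0.911), and Cyp26a1 to Frem2 (0.896), Zfyve28 (0.894) and Greb1l (0.872). Crabp1 had no neighbour above Ndrg1 (0.804). Without the library labelled LFAI day 1, Tmem131l (0.935) took the place of Mapk8ip2 for Crabp2 and Klc4 (0.932) that of Upf2 for Rara. Cyp26b1 and Rarb had means below 1 CPM and were left out.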

How the data were processed

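The 17 libraries were stranded polyadenylated RNA libraries. Per the submitters' processing notes, HISAT2 (2.0.4), HTSeq (0.6.1), DESeq2 (1.10.1) and the build GRCm38 were named, and the deposited files hold raw counts per gene as the authors made them; the annotation release and the strand setting are not given in the sources used here. Rows that name no gene held 47.69 to 51.93% of the counts and were left out of library sizes and tests. Gene identifiers were matched to GENCODE M21 (47224 of 47729).

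The 8 libraries of the 4 groups were fitted together with edgeR (4.0.16, R 4.3.3) quasi-likelihood tests on group means after TMM scaling. The fit used edgeR's filter on low counts, its default prior count and Benjamini-Hochberg adjustment over 15525 genes (4 residual degrees of freedom). A prior count of 2 was used only for log2 CPM values, not for the fitted folds. The library of each group labelled R1 or CGR8 is a separate cell line, so the replicates span 2 lines. Calls have an adjusted p under 0.05. Deviations of same-line libraries from their group means were weakly correlated between groups, at 0.041 to 0.395. The main fit took no account of the line, and a fit with the line as a block was an alternative. The others were DESeq2 (1.42.0), its size factors, limma-voom (3.58.1), no filter, the 4 compared libraries alone and each library left out. The time course has single libraries, so count ratios are given with exact binomial 95% intervals, and 0 counts allow up to 3 counts. Ratios and bounds between groups use summed counts over both libraries.

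All 9 genes are named whatever they did. Of the pathway lists, any called gene could be named, or up to 4 per list and comparison with the smallest p. Of the pathway genes, 3 that passed the filter are counted but not reported by name here. Members and lists were chosen with earlier results of these data known. The procedure was tested on simulated counts.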

Additional observations from a re-analysis of the deposited data

Results flagged for a closer look

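Crabp1 moved in opposite directions in the cell lines between LIM and LFAI at 35 h. The log2 difference of LFAI at 35 h from LIM was 0.43 in R1 (counting interval 0.13 to 0.75) and -1.09 in CGR8 (-1.35 to -0.84). With 1 library per line and group, the difference between the lines was not tested.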

How the results depend on the processing

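Of the member folds recomputed under the alternatives, 602 kept their direction and side of the threshold, 34 were no longer called, 11 became called and 5 changed sign. Those 5 were all uncalled folds with 1 library left out. For 35 h of LFAI against LIM, Crabp1 ranged from -1.0 (without R1 LIM) to 0.35 (without CGR8 LIM), and Rarb from -1.39 (without CGR8 LIM) to 0.44 (without R1 LIM). In the same comparison Dhrs3 ranged from -0.14 (without CGR8 LIM) to 0.21 (without R1 LIM), and was -0.09 without CGR8 at 35 h. Crabp2 at 4 days against 35 h ranged from -0.09 (without CGR8 at 4 days) to 0.25 (without R1 at 4 days). Members called in LIM against L2i were 5 with no filter and 5 with DESeq2, against 3. For 35 h of LFAI against LIM, 990 genes were called, and 2205 with no filter, 1702 with DESeq2, 1489 with the line as a replicate block and 613 with the 4 libraries alone. The 4 pathway genes called there became 9 with no filter and 2 with the 4 libraries alone. The block changed 2 member calls, Rara in LIM against L2i (0.69, called) and Rarb at 4 days against LIM (-5.18, not called), and no other. Leaving out 1 library gave 1487 to 2821 genes called in LIM against L2i, 876 to 2152 at 35 h and 4899 to 6882 at 4 days against L2i. It gave 215 to 1012 at 35 h and 2093 to 4448 at 4 days against LIM, and 3344 to 5676 from 35 h to 4 days. Members called then ranged, in the same order, from 3 to 5, 3 to 3, 3 to 4, 1 to 2, 4 to 5 and 2 to 3. Pathway genes called ranged from 6 to 10, 4 to 8, 15 to 20, 0 to 4, 6 to 14 and 10 to 14. The 0 came from edgeR at 35 h against LIM, without CGR8 at 35 h or without R1 LIM. The cause of these changes was not tested. Of 36 levels per kilobase, 20 moved by more than the replicate SD with the mean transcript length, and the 199 recomputed time-course differences kept their values within the error. Each group had 1 library per line, so a lone library left in a group is assumed to vary like the others. Cyp26b1, Rarb and Aldh1a2 at 4 days rest on few counts, which limits their folds.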
